A study of Trichoderma reesei with 12 samples.

Results

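The effect of losing tmk3 in constant darkness was read from 6 of the 12 libraries of the series, chosen by their labels. The deletion strain, QM6a-delta-ku80-delta-tmk3, gave 3 libraries titled tmk3_DD, and its parent, QM6a-delta-ku80, gave 3 titled ku80_DD. Both strains are Trichoderma reesei without ku80, a gene of DNA end joining whose removal makes gene replacement easier, so the controls, which the labels call wild type, carry that deletion too. The mycelium had grown on cellulose in darkness for 96 h. No complemented strain and no second deletion strain is named in the labels, and they do not say whether the strain is a single clone, so loss of tmk3 and other differences the strains may have cannot be told apart. Separate cultures for the 3 libraries of a strain are not stated, and p-values therefore cover the spread of these libraries, possibly a technical one. In bulk mycelium, fewer cells of a kind and less RNA per cell cannot be told apart. All 10879 gene models of the count table belong to the comparison.

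Trichoderma reesei is an ascomycete fungus used in industry to make cellulases, enzymes that it secretes when it grows on cellulose. TMK3 is its mitogen-activated protein kinase of the Hog1 type. In such a cascade each kinase phosphorylates the next, and the last one acts on transcription factors and other proteins. In the yeast Saccharomyces cerevisiae, Hog1 is best known for the response to high osmolarity, and in the mould Aspergillus nidulans the same pathway has been linked to light signals received by phytochrome.

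The 10879 identifiers consist of 10876 made of a series letter, a running number and the letter W or C, and 3 names of mating-type genes. The file does not pair the identifiers with gene names, and 0 of them matched the 9116 entries of the RefSeq gene table of assembly v2.0. The tmk3 transcript and the genes of cellulases, osmotic response or light perception could therefore not be read by name. The 3 named genes, mat1-1-1, mat1-1-2 and mat1-1-3, belong to the mating type opposite to that of QM6a, whose own type is MAT1-2. Of these, mat1-1-1 had 0, 0 and 0 counts in tmk3_DD replicates 1 to 3 and 0, 0 and 1 counts in ku80_DD replicates 1 to 3, and the other two had 0 counts in all 6 libraries. In the shallowest of the 6 libraries, 0 counts left room for at most 0.231 CPM, the count scaled to library size.

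The 3 deletion libraries held 13010630, 14174867 and 16489752 counts, and the 3 parent libraries 15588807, 15955593 and 13889699. Identifiers with at least 1 count numbered between 9612 and 9764 per library. The deletion libraries resembled each other closely, with Pearson's r of log2 CPM between 0.974 and 0.975 over the tested genes, while r lay between 0.906 and 0.975 within the parent and between 0.814 and 0.903 across strains. The strains separated on the first principal component, with 67.4% of the variance. The second held 21.5% and spread the parent libraries, with replicate 2 at one end and replicate 3 at the other. Replicate 2 of the parent also had the lowest TMM scaling factor, 0.735, against 0.961 and 1.03 in the other parent libraries and 1.1, 1.14 and 1.09 in the deletion libraries. Deletion replicate 1 lay near its group on both components, and how far it differs in the genes that fell is given with the identifiers near 0 in light. Replicates differed from each other by more than sampling noise in every pair, with a chi-square of 55.4 to 461 per degree of freedom.

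**Figure D1:**
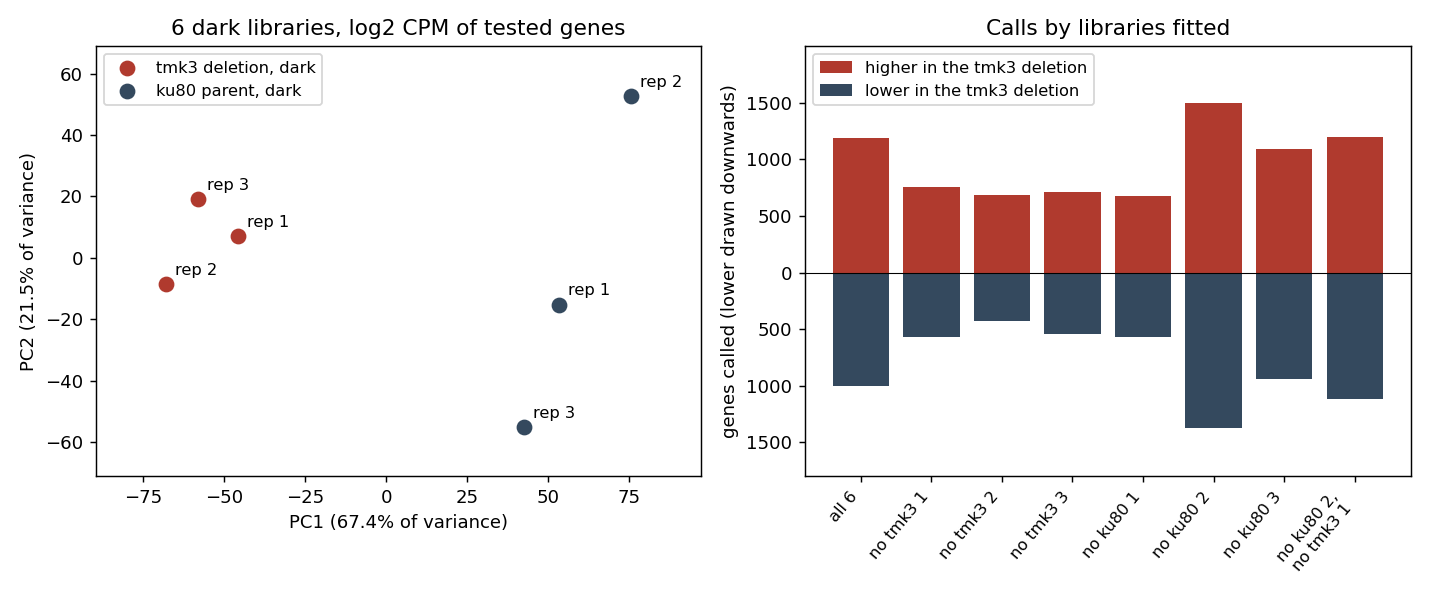
Left, the 6 dark libraries on the first and second principal components of log2 CPM, with deletion libraries in red and parent libraries in blue; the strains are apart on the first component (67.4% of variance), and parent replicates 2 and 3 are far apart on the second (21.5%). Right, the number of genes called higher (upwards) and lower (downwards) in the deletion strain for the 6 libraries and with single libraries left out, with 2183 calls in the first column and 2867 without parent replicate 2.

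In darkness the deletion strain differed from its parent in 2183 of the 8798 genes tested, or 24.8%. Levels rose in 1186 genes (13.5%) and fell in 997 (11.3%). Calls are at a Benjamini-Hochberg adjusted p below 0.05 in edgeR's quasi-likelihood test fitted to these 6 libraries alone, and fold changes are on the log2 scale, deletion strain over parent. The median change was 1.51 among genes that rose and -1.63 among genes that fell. Of those that rose, 841 (9.56% of tested genes) did so by at least 2-fold, 433 by at least 4-fold and 79 by at least 16-fold. Of those that fell, 704 (8.00%) did so by at least 2-fold, 402 by at least 4-fold and 129 by at least 16-fold, so the very large changes were more often falls.

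The size of the call list depended on the libraries entering the fit. Without parent replicate 2 and deletion replicate 1 together, 2317 of 8864 genes (26.1%) were called, of which 1198 rose and 1119 fell. Of the genes that rose with all 6 libraries, 947 also rose with the 4, which is 79.8% of the first list and 79% of the second. Of the genes that fell, 834 also fell with the 4, which is 83.7% of the first list and 74.5% of the second. No gene was called by edgeR in opposite directions in these fits. Leaving out single libraries gave 1324, 1112 and 1255 calls without deletion replicates 1, 2 and 3, and 1245, 2867 and 2028 calls without parent replicates 1, 2 and 3. A core of 947 genes (10.8% of tested) was called in the same direction in all 8 of these fits, 572 higher (6.50%) and 375 lower (4.26%). The core held the larger changes, with medians of 2.09 and -2.48, which follows in part from its choice by repeated tests.

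Scaling also moved the balance of rises and falls. With library totals in place of TMM factors, 1386 genes rose and 585 fell, and the change of the typical gene was higher by 0.288 on the log2 scale. The median over all tested genes was -0.08 with TMM factors and 0.21 with library totals. Counts of rises against falls are thus relative to the scaling. The 5 identifiers named next as changed kept their calls under both.

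**Figure D2:**
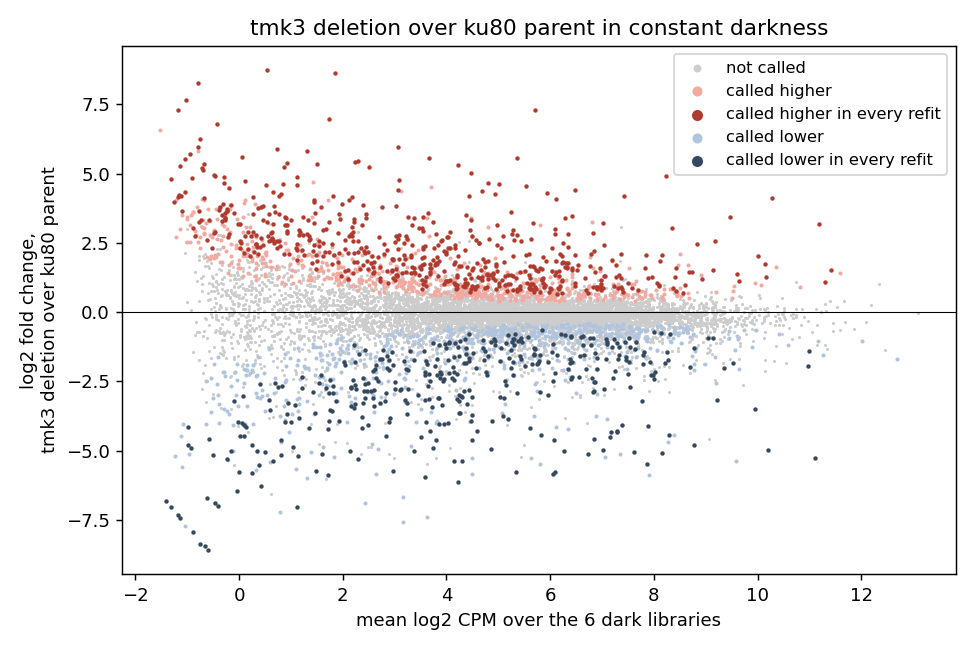
Each point is a tested gene, with its mean log2 CPM over the 6 dark libraries on the horizontal axis and its log2 fold change, deletion strain over parent, on the vertical axis. Dark red and dark blue mark the 572 genes called higher and the 375 called lower in all 8 fits, pale colours the other calls and grey the genes not called.

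Groups that did not overlap were more frequent than calls. In 2046 genes (23.3%) all 3 deletion libraries lay above all 3 parent libraries, and in 2084 (23.7%) they lay below. All 2183 called genes were among these 4130 (46.9% of tested genes). The rest, 860 higher and 1087 lower, were apart without passing the test.

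Genes that changed held a sizeable share of the RNA pool. Genes called higher held 13.6%, 15.4% and 14.2% of all counts in the deletion libraries, against 4.92%, 3.18% and 5.21% in the parent libraries. Genes called lower held 7.48%, 6.62% and 6.51% in the deletion libraries and 20.2%, 16.4% and 21% in the parent libraries. In both sets the groups were far apart, which the choice of the sets fixes. The 10 most abundant transcripts of the dark parent made up 7.44% ± 0.231 of its counts and 3.05% ± 0.247 of those of the deletion strain (SD, n = 3 each), and 5 of the 10 fell and 5 were not called, against 11.3% of all tested genes that fell. Of the 10 most abundant in the deletion strain, 4 rose, 1 fell and 5 were not called, against 13.5% of all tested genes that rose. Picking genes by their level in 1 strain favours a change in that direction, so nothing is read from these counts. These made up 6.24% ± 0.203 of the counts of the deletion strain and 4.46% ± 0.662 of those of the parent. Among the 100 most abundant genes over the 6 libraries, 12 rose and 15 fell, close to the 13.5% and 11.3% of all tested genes, and 8 and 6 did so in all 8 fits, against 6.50% and 4.26%.

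By mean CPM over its 3 libraries, the dark parent had most of TrC1166C, although other identifiers were above it in parent replicates 1 and 2. TrC1166C had 917, 132 and 223 CPM in deletion replicates 1, 2 and 3, against 14010, 17850 and 16530 CPM in parent replicates 1, 2 and 3. The groups were far apart, and deletion replicate 1 was above the other deletion libraries. In shares of all counts this is 0.101%, 0.015% and 0.0244% in the deletion strain and 1.35%, 1.31% and 1.71% in the parent. The log2 fold change was -5.25 (SE 0.84, edgeR adjusted p = 0.00771). It was -6.51 without deletion replicate 1 and -6.42 without deletion replicate 1 and parent replicate 2, and the call held in all 8 fits. TrC1333W was by mean CPM the most abundant transcript of the dark deletion strain, although TrC0633C was above it in deletion replicate 3 (204368 against 147661 counts). TrC1333W had 9022, 8791 and 8198 CPM in the deletion libraries and 9285, 8947 and 8034 CPM in the parent libraries. Its groups overlapped, and its log2 fold change of -0.01 (SE 0.19) did not pass the test (edgeR adjusted p = 0.963). With library totals it was 0.28, also not called (edgeR adjusted p = 0.409).

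TrC0922C and TrG0048W had the largest rises among well expressed genes, those whose log2 CPM averaged 6 or more, with groups apart and a call with and without the 2 libraries named above. TrC0922C reached 1636, 1795 and 1609 CPM in the deletion libraries, against 62.8, 37.5 and 67.2 CPM in the parent libraries. The 3 deletion values differed little from each other, and parent replicate 2 was the lowest of the parent. The log2 fold change was 4.91 (SE 0.29, edgeR adjusted p = 0.000736) and lay between 4.70 and 5.10 when single libraries were left out. TrG0048W had 392, 442 and 399 CPM in the deletion libraries and 18.2, 19.3 and 20.4 CPM in the parent libraries. It was tight in both groups, and rose by 4.41 (SE 0.14, edgeR adjusted p = 0.00015), or by 4.46 with the 4 libraries. Both were called in all 8 fits.

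TrB0598W and TrG0832W had the largest falls under the same rule. TrB0598W had 30.3, 30.8 and 60.9 CPM in the deletion libraries and 2384, 4373 and 316 CPM in the parent libraries. Its parent replicate 3 was far below the other two, yet above every deletion library. The log2 fold change was -5.86 (SE 1.03, edgeR adjusted p = 0.0102). It was -5.03 without parent replicate 2, -4.86 with the 4 libraries, and -5.64 without deletion replicate 2, where the call was lost (edgeR adjusted p = 0.0542). TrG0832W had 14.8, 5.03 and 7.94 CPM in the deletion libraries, against 649, 355 and 590 CPM in the parent libraries. Deletion replicate 1 was the highest of its group and parent replicate 2 the lowest of its own. The log2 fold change was -5.84 (SE 0.52, edgeR adjusted p = 0.00157), or -6.56 with the 4 libraries, and the call held in all 8 fits.

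**Figure D3:**
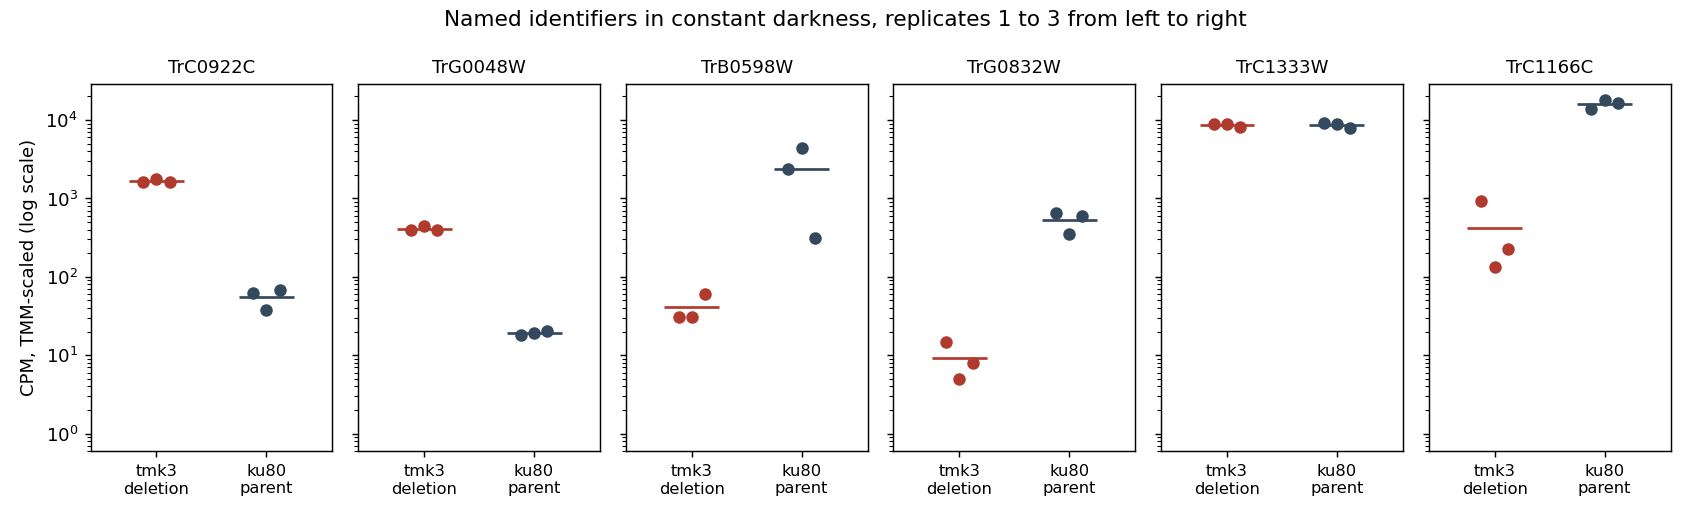
TMM-scaled CPM (log axis) of 6 identifiers in the 3 deletion libraries (red, left) and the 3 parent libraries (blue, right) in darkness, replicates 1 to 3 from left to right, with group means as lines. TrC0922C and TrG0048W are higher and TrB0598W, TrG0832W and TrC1166C lower in every deletion library, while the groups of TrC1333W overlap.

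In darkness a small set of identifiers was near silent in one strain and expressed in the other. Over the 3 parent libraries together, 10 identifiers had at most 3 counts while each deletion library had at least 20, and 2 of these 10, TrG0158W and TrG0287W, had 0 counts in the parent. TrA0235C was the most abundant of the 10, with 142, 259 and 284 counts in the deletion libraries and 1, 0 and 0 counts in the parent libraries. In the other direction, 7 identifiers had at most 3 counts over the deletion libraries and at least 20 in each parent library, of which TrA2082C, TrA2132C and TrE0080W had 0 counts in the deletion strain. TrE0080W had 0, 0 and 0 counts in the deletion libraries and 39, 36 and 44 counts in the parent libraries. All 17 were called. These identifiers were picked by this rule after the values were seen, and the rule uses the counts compared.

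Calls were found at every level of expression. Tested genes were divided into 10 classes of equal size by mean log2 CPM, with class 1 the lowest. In class 1, 28.4% rose and 14% fell, and in class 10, 7.16% rose and 9.89% fell. A gene of class 1 could pass the filter through 1 group alone, so its shares are not comparable with those of well expressed genes. Rises exceeded falls in classes 1 to 5 and in class 7, and falls exceeded rises in classes 6, 8, 9 and 10. The median size of the log2 fold change, whatever its direction, was between 0.325 and 0.364 in classes 5 to 10 and reached 1.62 in class 1.

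A number of dark calls recurred in constant light. The light libraries, 3 of the deletion strain and 3 of the parent, share no library with the dark comparison, and fitted alone they gave 1508 rises (17.9% of 8405 genes tested) and 1516 falls (18.0%). Of the 1102 genes that rose in darkness and were tested in light, 596 (54.1%) rose in light, 70 (6.35%) fell and 436 were not called. Of the 837 that fell in darkness and were tested in light, 385 (46%) fell in light, 63 (7.53%) rose and 389 were not called. In the core called in all 8 fits, 350 of 529 genes that rose and 156 of 297 that fell did so in light too. In the same core, 27 of the genes that rose (5.1%) and 30 of those that fell (10.1%) were called the opposite way in light. A test of the difference itself, the interaction in a fit to all 12 libraries, was called for 418 of the genes that rose in darkness and 387 of those that fell, against 14.1% of all 8998 genes in that fit. The dark libraries that chose these genes are also 1 side of the interaction, so a higher share is in part fixed by the choice and nothing is read from it.

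The named identifiers divided in this respect. TrC0922C had 627, 615 and 606 CPM in the light deletion libraries and 24.6, 29.2 and 25.8 CPM in the light parent libraries, and rose by 4.54 on the log2 scale (SE 0.10, edgeR adjusted p = 9.63e-08). Its effect in darkness exceeded that in light by 0.37, which did not pass the interaction test (edgeR adjusted p = 0.419). TrG0048W had 58.7, 46.4 and 52.7 CPM in the light deletion libraries and 42.1, 78.9 and 55.8 CPM in the light parent libraries. These groups overlapped (log2 fold change -0.16, edgeR adjusted p = 0.573), and the effect in darkness differed from that in light by 4.59 (SE 0.28, edgeR adjusted p = 2.49e-05). TrG0832W was hardly expressed in light in either strain, with 31, 14 and 0 counts in the light deletion libraries and 3, 58 and 2 counts in the light parent libraries, and its light effect was -0.30 (SE 1.23, edgeR adjusted p = 0.868). Its difference between darkness and light was -5.55 (SE 1.48, edgeR adjusted p = 0.0305). For TrB0598W (edgeR adjusted p = 0.0531) and TrC1166C (edgeR adjusted p = 0.0524) the interaction missed the threshold, and neither was called in light. TrB0598W had 58.1, 553 and 246 CPM in the light deletion libraries and 655, 12.5 and 76.9 CPM in the light parent libraries. TrC1166C had 43.3, 44.1 and 7.22 CPM against 15.8, 127 and 15.5 CPM. Light replicates were thus widely spread, and the light effects, 0.20 (SE 1.18) and -0.74 (SE 0.88), are poorly measured.

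Most identifiers that were almost absent from the light deletion libraries fell in darkness as well. The light libraries alone were used to pick 37 identifiers, those with less than 5% of the light parent level and at least 20 counts in every parent library. In darkness 30 of the 37 fell and 7, among them TrE1116C, were not called, against 11.3% of all tested genes that fell, and 15 fell in all 8 fits. Their log2 fold changes in darkness ranged from -6.27 to -0.46, with a median of -2.92. Of the 37, 8 had numbers in the last 50 of series D, and some are members of runs given below. The falls at the end of series D and in those runs are thus in part the same genes. Deletion replicates 1, 2 and 3 held 17.8%, 12.2% and 13.5% of the parent level of the 37, as summed counts (95% exact Poisson intervals 17.3 to 18.3, 11.8 to 12.6 and 13.1 to 13.9, which cover counting error only). Deletion replicate 1 was the highest of its group for 24 of the 37. Without TrE1116C, which held the most counts of the 37 in deletion replicate 1, the shares were 13%, 6.97% and 9.23%. Deletion replicate 1 was also the highest of its group for 49.3% of all genes called lower and the lowest for 40.5% of genes called higher. Deletion replicate 2 lay at the other extreme, lowest for 48.7% of genes called lower and highest for 42.3% of genes called higher. Parent replicate 2 was the lowest of its group for 52.3% of genes called higher and 46.4% of genes called lower. It was the highest of its group for 25.1% and 39.9% of them. Such shares over all tested genes were not counted. The part of these differences in the results was not tested. In the fit without deletion replicate 1 and parent replicate 2, 30 of the 37 were called lower. The numbers of calls without deletion replicate 1, alone and together with parent replicate 2, are given above.

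Changed genes lay beside each other along the identifiers. Identifiers were read as neighbours where their numbers follow each other within a series letter, and W and C as the strands. Both are assumptions from the form of the names, since the file has no coordinates. Within 50 numbers of the start or end of a series, 102 of the 455 genes tested had a fall of 2-fold or more, which is 22.4%, against 602 of 8343 (7.22%) elsewhere. With the 4 libraries the shares were 23.9% and 7.86%. With all 6 libraries and 25 numbers in place of 50 they were 34.5% and 7.39%. Every one of the 14 ends had a share above that of genes elsewhere, the lowest being 12.5% at the start of series F and the highest 41.4% at the end of series D. The share of a single end rests on few genes, with 3 falls among 24 tested at the start of F and 12 among 29 at the end of D. A weakly expressed gene could pass the filter through the parent libraries alone. Whether such genes are more frequent near ends was not tested. Rises of at least 2-fold made up 11.2% of genes near ends and 9.47% elsewhere, and within 25 numbers the order turned, with 7.11% near ends and 9.62% elsewhere. These shares were not tested, since neighbouring genes moved together.

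**Figure D4:**
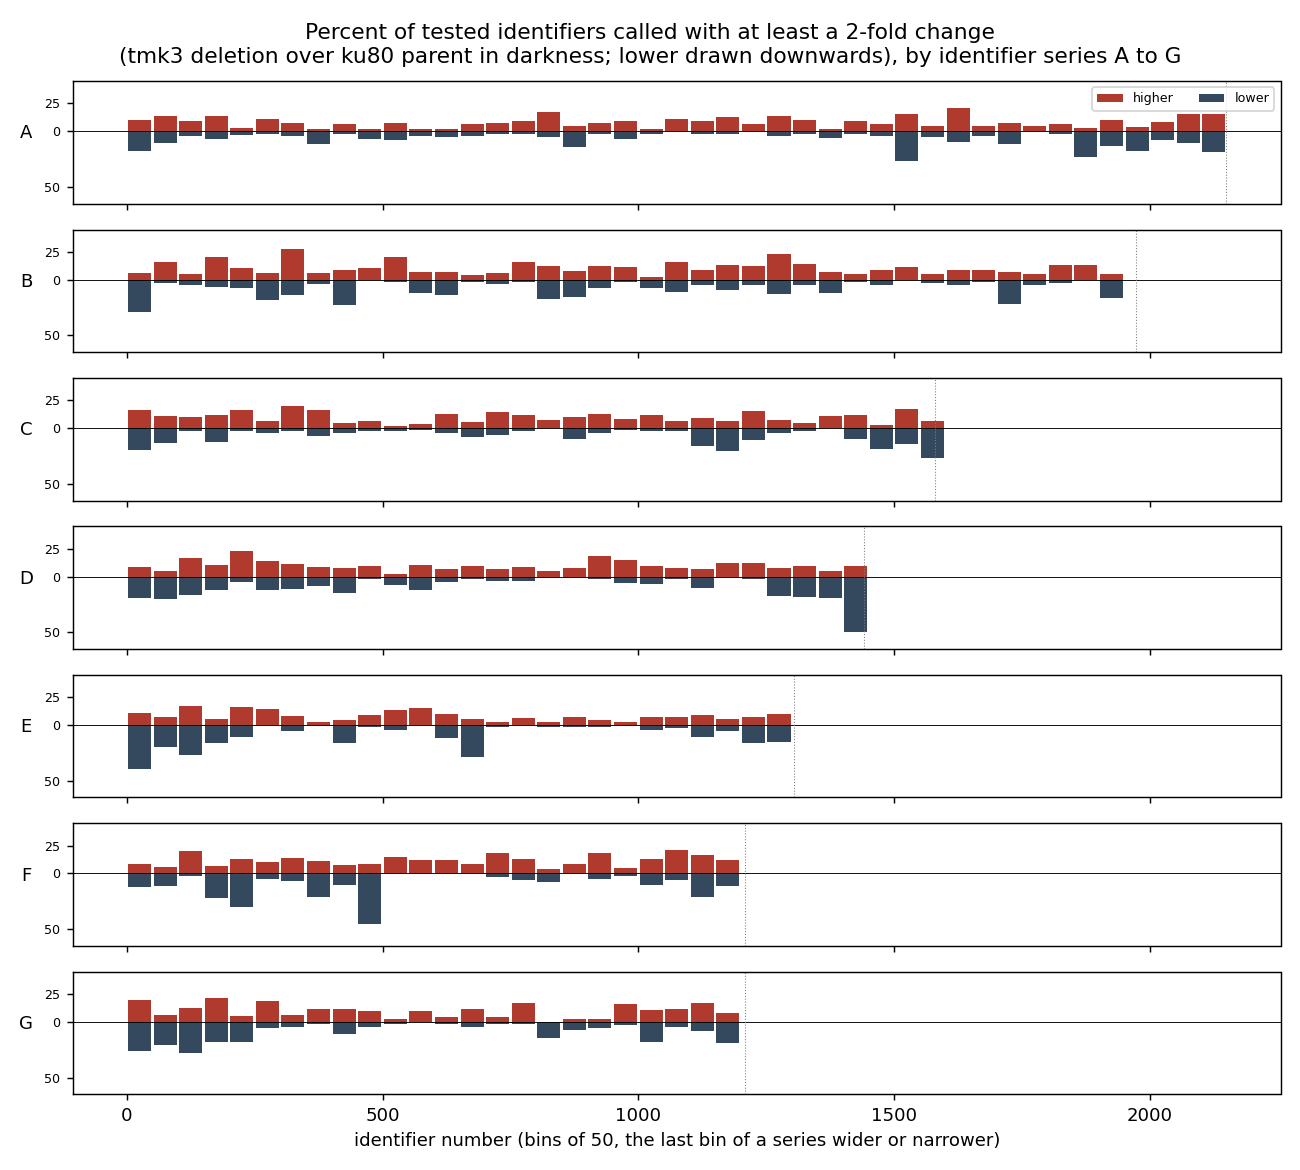
Percent of tested identifiers that rose (red, upwards) or fell (blue, downwards) 2-fold or more without tmk3 in darkness, in bins along the 7 identifier series A to G, with a dotted line at the last tested number of each series. Falls are frequent in the bins at the ends of several series, such as the last bin of D and the first of E, and in single inner bins of E and F.

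Neighbours that fell did so together most often in divergent pairs, where transcription runs apart from between the genes, and least often in convergent ones. No test was made of these shares. Where 1 of 2 neighbouring tested genes fell, the other fell as well in 25.8% of cases, and where 1 rose, the other rose in 22.4%, against 11.3% and 13.5% of all tested genes. For divergent pairs, C followed by W, the share was 35.7% for falls and 24.4% for rises. For convergent pairs, W followed by C, it was 16.7% and 14.4%. Pairs on the same strand lay between for falls (24.8%) and were highest for rises (26.2%), an order that the 4 libraries turned round for rises, with 27.1% in divergent pairs and 25.7% on the same strand. Pearson's r of the log2 fold changes was 0.382 over 2220 divergent pairs, 0.247 over 3005 pairs on the same strand and 0.117 over 2209 convergent pairs, and 0.409, 0.292 and 0.145 with the 4 libraries. The light libraries gave 0.381, 0.238 and 0.163. All pairs of a fit share the same libraries, a gene can belong to 2 pairs, and reads of overlapping neighbours cannot be told apart because the strand setting of the counting is not given in the sources used here.

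Runs of neighbouring tested identifiers with the same call numbered 20 of at least 4 genes for falls, with 96 genes in all, and 13 for rises, with 52 genes. The longest run of falls had 8 members and the longest of rises 4. In runs, untested identifiers between members were passed over, so the numbers of the members need not follow each other. The run from TrD1427W to TrD1441C had 6 members among 15 listed identifiers. The runs were found in the calls themselves, so their direction is no separate result. All members of some runs were called in all 8 fits. The 4 identifiers from TrC1164C to TrC1167C, among them TrC1166C, were such a run of falls. TrD0072C to TrD0075C was another, with 22, 0 and 17 counts in the deletion libraries and 501, 249 and 613 in the parent libraries over its 4 members. In the run of rises from TrD0246C to TrD0249W the deletion libraries held 11469, 11617 and 16421 counts, against 1152, 423 and 517 in the parent libraries.

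Toward the end of series D, the 6 tested identifiers between TrD1427W and TrD1441C fell together, with log2 fold changes from -6.14 to -4.75. They held 443, 38 and 217 counts in deletion replicates 1, 2 and 3, against 12957, 4491 and 9637 in parent replicates 1, 2 and 3. Deletion replicate 1 was the highest of its group and replicate 2 the lowest, and the groups were far apart. All 6 were called with the 4 libraries and 3 in all 8 fits, and the 5 of them tested in light fell there too.

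In 2 runs the direction turned with light. The 8 identifiers from TrE0009C to TrE0016W held 193, 222 and 166 counts in the dark deletion libraries and 1492, 758 and 2320 in the dark parent libraries, and all 8 fell, with log2 fold changes between -5.74 and -2.23 (edgeR adjusted p between 0.00184 and 0.0223). In light the same 8 held 3320, 2176 and 4336 counts in the deletion libraries and 538, 890 and 555 in the parent libraries. Of the 7 tested in light, 5 rose and 1, TrE0010C, fell, and the interaction was called for 6 of the 8. TrE0016W had 9, 3 and 4 counts in the dark deletion libraries, against 232, 149 and 384 in the dark parent libraries. All 8 were called with the 4 libraries and 5 in all 8 fits. The 4 identifiers from TrB0327C to TrB0330C showed the opposite order. They held 545, 633 and 657 counts in the dark deletion libraries and 199, 103 and 217 in the dark parent libraries, and all 4 rose, by between 1.26 and 2.29 on the log2 scale. In light they held 219, 211 and 199 counts in the deletion libraries and 891, 417 and 423 in the parent libraries, and all 4 fell, with the interaction called for each. For this run 3 of 4 were called with the 4 libraries and 2 in all 8 fits. Both runs were singled out after their values were seen.

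**Figure D5:**
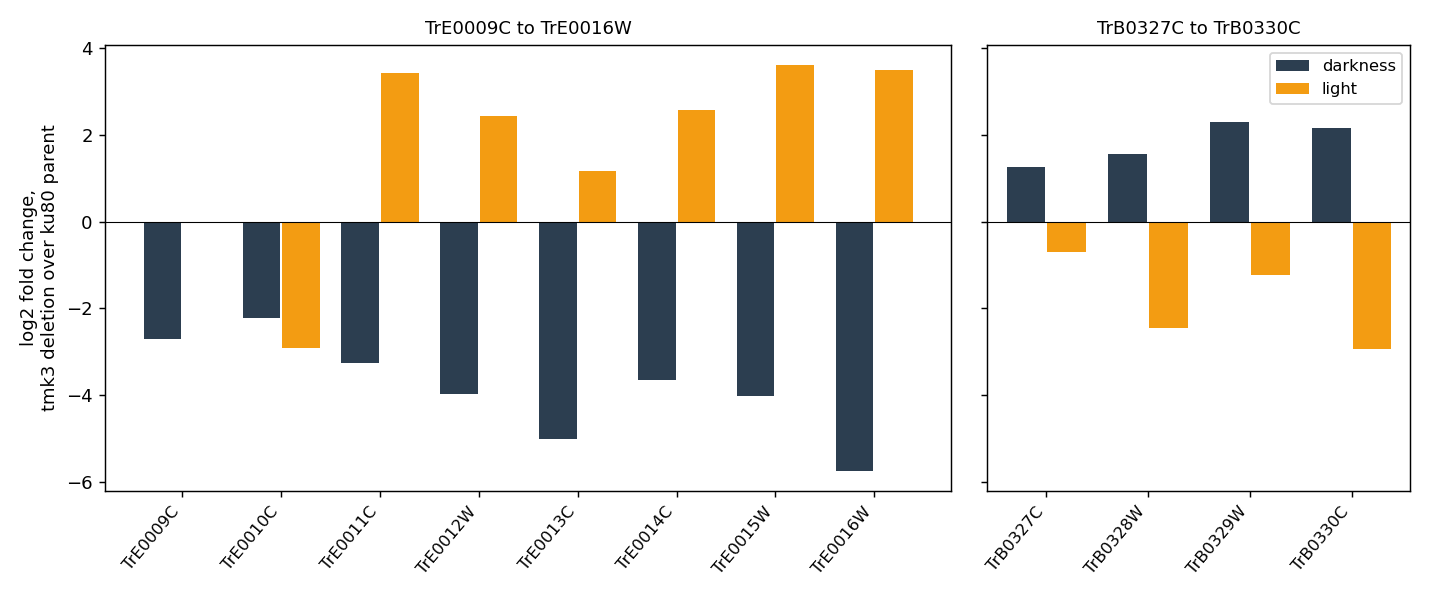
Log2 fold change, deletion strain over parent, of the members of 2 runs of neighbouring identifiers, fitted in darkness (dark bars) and in light (orange bars). From TrE0011C to TrE0016W the dark bars are below and the light bars above 0, and from TrB0327C to TrB0330C it is the other way round; TrE0009C was not tested in light and has no orange bar.

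Long runs of falls were also found in series F and A. The 8 tested identifiers from TrF0458W to TrF0466W fell, with log2 fold changes between -3.62 and -1.56. They held 734, 840 and 924 counts in the deletion libraries and 3808, 1460 and 4314 in the parent libraries, with parent replicate 2 the lowest of its group and still above every deletion library. The 7 tested identifiers from TrA1542C to TrA1549W fell, with log2 fold changes between -3.00 and -1.83 and 198, 213 and 239 counts in the deletion libraries and 1345, 753 and 1491 in the parent libraries. Of these, 7 of 8 in series F and 6 of 7 in series A were called with the 4 libraries, and 3 in each run in all 8 fits.

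The series letters differed little in their share of calls. Rises made up between 11.4% (E) and 15.2% (C) of tested genes, and falls between 9.92% (A) and 12.8% (D). Identifiers with C rose in 13.4% and fell in 11.5%, and those with W rose in 13.5% and fell in 11.2%.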

How the data were processed

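The authors deposited 1 table of raw read counts per gene model, with whole numbers and no normalization, from rRNA-depleted libraries prepared with a kit that keeps the strand, per the labels' protocols. The submitters' processing notes list HISAT2 2.2.1. How strand was set in counting, and whether genes were filtered, is not given in the sources used here, so counts of overlapping genes and near-identical copies are uncertain. Columns were assigned by the label that carries their name, with 0 left unused.

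Genes were filtered with filterByExpr, libraries scaled by TMM, and 1 mean per strain fitted to the 6 dark libraries in R 4.3.3 with edgeR 4.0.16 (quasi-likelihood F test, Benjamini-Hochberg adjusted p below 0.05). Of 10879 gene models, 8798 were tested. SE means the size of the log2 fold change over the root of F, an approximation that fails near 0 counts. For principal components, log2 CPM had a prior count of 2. The light libraries were fitted alone in the same way, and the interaction, darkness minus light, was taken from 1 fit to all 12. The bound on CPM given for a count of 0 uses a floor of 3 counts, which did not enter the fits. Alternatives were library totals, DESeq2 1.42.0, no filter, all 12 libraries, a threshold of 0.01, the replicate number as a block, and each library left out. The 8 fits named are the one to 6 libraries, 6 with 1 library left out, and the one to 4. The procedure was tested on simulated counts with a small set of genes changed by known folds. The simulated libraries differed only in size, those genes and random draws. The simulation therefore cannot show how calls respond to scaling or to a library that stands apart. Named genes were the 2 largest changes each way at a mean log2 CPM of at least 6, with groups apart and a call in both fits, the most abundant identifier of each group, the mating-type genes and the ends of runs. Other identifiers were singled out after their values were seen. Members and lists were chosen with earlier results of these data known.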

Additional observations from a re-analysis of the deposited data

Results flagged for a closer look

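In the 12 identifiers listed here, the deletion effect differed between darkness and light by the interaction test in the fit to all 12 libraries. The interaction was also called for 3 of the 8 members of the run from TrF0458W to TrF0466W. In the run from TrA1542C to TrA1549W it was called for 5 of the 7. Values are the effect in darkness minus the effect in light, on the log2 scale, and p-values are from edgeR. Of the identifiers named for the largest changes, TrG0048W had 4.587 (adjusted p = 2.49e-05) and TrG0832W -5.545 (adjusted p = 0.0305). TrG0832W had 31, 14 and 0 counts in the light deletion libraries and 3, 58 and 2 counts in the light parent libraries, so its light effect is poorly measured.

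In the run from TrE0009C to TrE0016W, the difference was -6.692 for TrE0011C (edgeR adjusted p = 0.000333), -6.405 for TrE0012W (0.000129) and -6.171 for TrE0013C (0.00172). It was -6.211 for TrE0014C (0.000269), -7.624 for TrE0015W (0.000448) and -9.222 for TrE0016W (0.000145). TrE0015W held only 2, 3 and 0 counts in the dark deletion libraries, so its fitted value depends on the prior count. For TrE0013C the light effect of 1.16 alone was not called (edgeR adjusted p = 0.115).

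In the run from TrB0327C to TrB0330C, the difference was 1.957 for TrB0327C (edgeR adjusted p = 0.00271), 4.018 for TrB0328W (0.00137), 3.515 for TrB0329W (0.000395) and 5.091 for TrB0330C (0.00384). TrB0330C had 9, 14 and 10 counts in the light deletion libraries and 247, 28 and 45 in the light parent libraries, so parent replicate 1 stood above the others. Both runs were chosen because their calls were opposed, so these tests are no independent support.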

How the results depend on the processing

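The limits below concern how many genes were called. With library totals and in the fit to all 12 libraries they also concern the balance of rises and falls. Leaving out single libraries gave between 1112 and 2867 calls in all, 674 to 1498 rises, 427 to 1369 falls, 588 to 891 rises of at least 2-fold and 385 to 790 falls of at least 2-fold, and the cause of each change beyond the loss of a sample was not tested. Without parent replicate 2 and deletion replicate 1 there were 2317 calls. The fit to all 12 libraries called 3664 genes, and DESeq2 called 3010. With all 12 libraries falls outnumbered rises, 1941 against 1723, while the main fit had 997 falls and 1186 rises. At an adjusted p below 0.01, 861 genes were left, of which 503 rose (448 by at least 2-fold) and 358 fell (333). With library totals 585 genes fell, the groups lay apart downwards in 1020 genes and upwards in 3061, and 245 dark falls were also called in light, against 385 (669 with all 12 libraries). With the replicate number as a block, 895 genes were called, 493 higher (459 by at least 2-fold) and 402 lower (378), and TrB0598W was -5.48 (adjusted p = 0.0779). Deviations of same-numbered libraries from their group means correlated at -0.01, -0.39 and -0.30 for replicates 1, 2 and 3. The deviations within a group of 3 depend on each other, so these values cannot decide whether the numbers pair the samples. Taking the genes called in the 4 libraries, rises held 15.7% of deletion counts, and falls held 9.24% of deletion and 22.4% of parent counts. With all 6 libraries, falls of at least 2-fold made up 34.5% within 25 numbers of a series end and 7.39% elsewhere. With the 4 libraries and 50 numbers the shares were 23.9% and 7.86%. The 6 identifiers in the plot of CPM by strain kept their side of the threshold under every alternative listed in the methods, except TrB0598W under the block, without deletion replicate 2 (-5.64, adjusted p = 0.0542) and at the threshold of 0.01 (adjusted p = 0.0102).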

Other observations

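Of the 10879 gene models, 2081 were not tested in darkness. Among these, 521 had 0 counts in all 6 libraries and 1560 had some, with at most 543 counts over the 6. Among the genes called lower, the highest deletion library exceeded the lowest by a median of 1.4-fold and the highest parent library the lowest by 1.59-fold, after adding 1 count. Among the genes not called, these ratios were 1.24 and 1.49. The common coefficient of biological variation was 0.335 over the 6 dark libraries, 0.236 over the 4 and 0.144 over the 6 light libraries.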
